A study of Mus musculus with 6 samples.

Results

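Gpnmb, Spp1, Cd9, Cd63, Lgals3, Gdf3 and Gdf15 are 7 genes known from lipid-loaded macrophages, and they were taken by symbol from the 19349 genes of the count tables. They were chosen by their levels in the macrophages of these libraries, which were known to differ between the treatment groups, so the macrophage values below are a description and carry no test. Every member was found in every library's table. Single-cell RNA sequencing (scRNA-seq) was performed on liver non-parenchymal cells (LNPCs) of mice with nonalcoholic steatohepatitis (NASH). The comparison asked how ginkgetin, a plant biflavone, altered these cells. All mice were male C57BL/6J, 8 weeks old at the start, and were fed a high-fat diet for 24 weeks. In the last 8 weeks ginkgetin at 10 mg/kg/day or vehicle (DMSO) was given into the stomach, and each group held 3 libraries. The vehicle group therefore carried the diet too, and no library of lean mice was analysed here.

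Macrophages that gather in fatty tissue take up lipid and dead cells, and switch on a shared set of lysosomal, lipid-handling and secreted genes under the receptor Trem2. In a NASH liver such cells arise from monocytes and stand beside the resident Kupffer cells of the sinusoids. The members cover membrane, lectin and secreted parts of that state. Gpnmb encodes a transmembrane glycoprotein of lysosomes and the cell surface. Cd9 and Cd63 encode tetraspanins, Cd63 being typical of late endosomes and lysosomes. Lgals3 encodes galectin-3, a sugar-binding protein. Spp1 encodes osteopontin, a secreted matrix protein that bile duct cells also make, and Gdf3 and Gdf15 encode growth factors of the transforming growth factor beta superfamily.

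In GENCODE M21 (GRCm38), Gpnmb, Gdf3 and Cd9 lie on chromosome 6, Gpnmb at 49036546 to 49070929 on the plus strand, Gdf3 at 122605403 to 122610087 on the minus strand and Cd9 at 125460266 to 125494791 on the minus strand. Spp1 lies on chromosome 5 at 104435118 to 104441050, Cd63 on chromosome 10 at 128900989 to 128912822 and Lgals3 on chromosome 14 at 47367751 to 47386160, all on the plus strand. Gdf15 lies on chromosome 8 at 70629393 to 70632456 on the minus strand. Cd9 overlaps Gm28809 on the other strand, and both are in the tables, so part of a count could not be assigned to a strand from what the sources used here state.

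Because the members moved together in macrophages, their promoters were read for the motifs of factors of that state. RefSeq (GRCm38.p6) held 8 promoter windows for 6 members and none for Gdf3. Both strands were searched from 250 bases before to 50 after the start. Of 32851 promoters, the E-box CACGTG was in 7.15%, its longer form TCACGTGA, which contains it, in 0.974%, the variant E-box CATGTG in 14.2%, the AP-1 site TGAGTCA in 5.20%, the cyclic AMP element TGACGTCA in 1.79% and the ATF4 element TTGCATCA in 0.895%. The AP-1 site was met in Gpnmb on the other strand at base +9, the variant E-box in Cd9 on the other strand at base -38, and the E-box in the second Gdf15 window at base -83. No match was met in the windows of Spp1, Cd63, Lgals3 or the first of Gdf15, which says nothing of the factors. The windows printed here start 150 bases before the start site, have the motif in capitals and end before annotated untranslated exon. They are the windows with a match that could be printed, and the first Spp1 window, since Spp1 behaved apart from the others.
Gpnmb, chr6:49036368-49036542, plus strand: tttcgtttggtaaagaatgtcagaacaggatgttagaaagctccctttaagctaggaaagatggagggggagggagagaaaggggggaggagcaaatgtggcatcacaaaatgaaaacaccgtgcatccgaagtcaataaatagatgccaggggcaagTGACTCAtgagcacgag
Cd9, chr6:125494792-125494910, minus strand: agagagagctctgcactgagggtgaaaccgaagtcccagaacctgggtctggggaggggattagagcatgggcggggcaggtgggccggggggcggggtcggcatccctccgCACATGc
Spp1, chr5:104434961-104435117, plus strand: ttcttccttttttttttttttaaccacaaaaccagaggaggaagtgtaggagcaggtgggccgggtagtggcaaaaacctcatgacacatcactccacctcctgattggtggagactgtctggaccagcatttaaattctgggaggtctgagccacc

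The tables held 33168 barcodes, of which 27544 had 250 to 5000 genes and under 5% mitochondrial counts and were kept. Libraries held 13128697 to 61796882 counted molecules (UMIs, unique molecular identifiers), with 2483 to 8412 per kept cell at the median. Both replicate 3 libraries stood apart. They used another barcode set, and 172 genes at 0 in the other 4 libraries had 1000 or more UMIs there, with 184 genes the other way, so they were clustered separately. Of all barcodes, 258 occurred in more than 1 library. A doublet caller marked 0.0286 to 0.192% of cells, too few for it to have worked. Levels are given as CPM, the UMIs of a gene scaled to a common total of UMIs, of a class, summed per library. Classes of cells were named from markers and are written as such-like. In such sums, fewer cells expressing a gene and less of its RNA per cell cannot be told apart. The labels do not say that the libraries came from separate animals, so p-values measure the spread between these libraries.

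In macrophage-like cells, the 3183 vehicle cells held each member at a higher level than the 914 ginkgetin cells, and for all 7 members every ginkgetin library lay below every vehicle library. Of 10411 genes tested in these cells, 7.89% did so, a share given beside the count only, since the contrast chose the members. On the log2 scale of the edgeR fit the members' differences ran from -5.05 for Gdf3 to -2.33 for Spp1, with a median of -3.47 against 0.01 over all genes. The macrophage-like cells of the vehicle group were deeper, at 7661 to 16298.5 UMIs per cell at the median against 2071 to 2372. The part of depth in the differences was not tested for the sums, and thinned shares follow below.

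Gpnmb stood at 321, 472 and 593 CPM in the vehicle libraries and at 14.2, 6.78 and 40.6 CPM in the ginkgetin libraries (462 ± 136 against 20.5 ± 17.8, SD, n = 3). The lowest vehicle library was far above the highest ginkgetin library, and the log2 difference was -4.89 (SE 0.59). Cd63 stood at 846, 767 and 1029 CPM with vehicle and at 168, 73.2 and 80.3 CPM with ginkgetin, a log2 difference of -3.47 (SE 0.44). Cd9, its fellow tetraspanin, stood at 434, 364 and 572 CPM against 54.0, 104 and 81.2 CPM, a log2 difference of -2.96 (SE 0.29). The groups did not overlap for either tetraspanin. Lgals3 stood at 2509, 2027 and 2189 CPM against 466, 396 and 438 CPM (2241 ± 245 against 433 ± 35.4, SD, n = 3). It kept a clear level in every ginkgetin library, with a log2 difference of -2.82 (SE 0.26).

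Among the secreted members, Spp1 stood at 266, 336 and 655 CPM with vehicle and 45.5, 179 and 115 CPM with ginkgetin, a log2 difference of -2.33 (SE 0.51). Its ginkgetin replicate 2 came closest to the vehicle libraries. Gdf3 stood at 108, 65.1 and 92.5 CPM against 0, 0 and 7.08 CPM. No Gdf3 UMI was seen in ginkgetin macrophage-like cells of replicates 1 and 2, so the fitted log2 difference of -5.05 (SE 0.69) rests on replicate 3. With 1 library left out it ran from -12.51, without ginkgetin replicate 3, to -4.72. Gdf15 stood at 32.6, 53.6 and 316 CPM against 2.84, 9.49 and 26.0 CPM, a log2 difference of -3.62 (SE 0.98). That difference ran from -4.60, without ginkgetin replicate 3, to -1.997, without vehicle replicate 3. Vehicle replicate 3 alone set most of its mean, and ginkgetin replicate 3 was the highest of its own group.

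**Figure D1:**
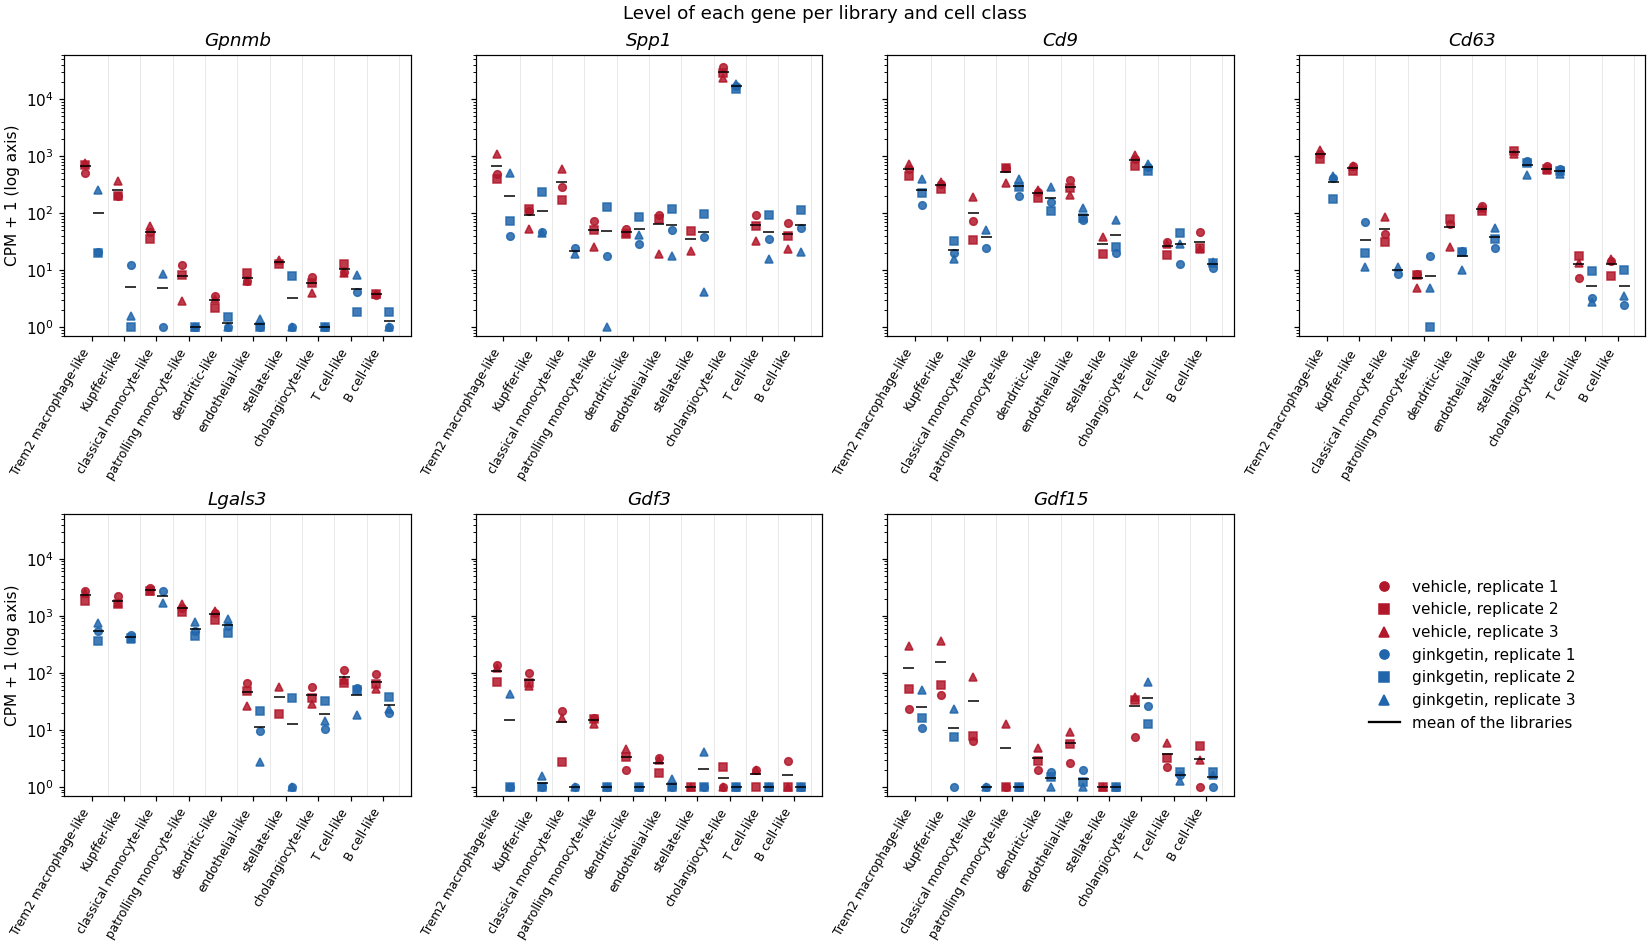
Level of each of the 7 genes in each class of cells, 1 panel a gene, as CPM + 1 on a log axis, with 1 point for each library (vehicle red, ginkgetin blue, replicate by shape) and a line at the mean. In macrophage classes the ginkgetin points sit below the vehicle points for most genes, while Spp1 in cholangiocyte-like cells sits between 15097 and 37139 CPM over both groups.

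Kupffer-like cells (1398 with vehicle, 802 with ginkgetin) carried the same pattern for 6 members, each of whose ginkgetin libraries all lay below the vehicle libraries, beside 9.08% of the 8973 genes tested there. Gpnmb stood at 198, 197 and 368 CPM against 11.6, 0 and 0.577 CPM. Cd63 stood at 667, 551 and 677 CPM against 69.9, 19.1 and 10.4 CPM, and Cd9 at 323, 263 and 356 CPM against 19.4, 31.9 and 15 CPM. With ginkgetin, T cell-like cells held Cd63 at 1.84 to 8.6 CPM, just under the lowest Kupffer-like library. Lgals3 stood at 2231, 1611 and 1689 CPM against 466, 404 and 385 CPM. Gdf15 stood at 40.5, 61.5 and 363 CPM against 0, 6.38 and 22.5 CPM. Gdf3 was counted 1292 times with vehicle and 1 time with ginkgetin, a 185-fold difference in level with a counting interval of 33.1 to 7301 (95%, exact, counting error only). Spp1 did not follow this pattern, at 110, 116 and 51.8 CPM against 46.6, 238 and 44.4 CPM, and its groups overlapped. T cell-like cells, pooled over the libraries of a group, held Spp1 at 61.7 CPM with vehicle and 33.3 CPM with ginkgetin. Vehicle replicate 3 of the Kupffer-like cells lay below the T cell-like level of its group, and the other libraries lay above theirs. The Kupffer-like Spp1 values may therefore be background in part, which was not tested.

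The Kupffer-like cells of the groups lay mostly in different sub-clusters. Those of vehicle mice lay mostly in sub-clusters with Folr2, Apoc1, Fabp7 and Mmp12 among the top genes, and those of ginkgetin mice in sub-clusters with the resident Kupffer genes Cd163, Marco and Timd4 among them. The 8 Kupffer markers summed to 12234 to 15204 CPM with vehicle and 14183 to 20121 CPM with ginkgetin. The sub-clusters of mostly vehicle cells passed the naming thresholds for 5 and 4 of these 8 markers and for 4 Trem2 macrophage markers each. Those of mostly ginkgetin cells passed them for 7 and 8 Kupffer markers and for no Trem2 macrophage marker. The 11 Trem2 macrophage markers in Kupffer-like cells, all detected, summed to 5482 to 7103 CPM with vehicle and 1716 to 2993 CPM with ginkgetin and so moved with the members, and their part was not tested. Where 1 sub-cluster of replicate 3, led by Apoc1, Fabp7 and Mmp12, held cells of both groups, its 14 ginkgetin cells gave 27.2 CPM of Cd63 against 678 CPM with vehicle. There Lgals3 stood at 1197 against 1691 CPM and Gpnmb at 0 against 369 CPM. The Cd63 value is 1 UMI and the Gpnmb value none, of 1 library against 1. Endothelial markers in Kupffer-like cells, all 8 detected, summed to 301 to 371 CPM with vehicle and 1084 to 1831 CPM with ginkgetin. T cell markers summed to 3.02 to 9.44 against 38.7 to 59.5 CPM and erythroid markers to 6.53 to 10.4 against 40.4 to 1231 CPM. Cholangiocyte markers summed to 12.6 to 13.7 against 14.4 to 34.0 CPM, while hepatocyte markers overlapped. The part of these markers in the result was not tested.

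Trem2 macrophage-like cells numbered 1564 with vehicle and 105 with ginkgetin (16, 49 and 40 by replicate), and their median depths were closer, at 8146 to 15326 UMIs against 4423 to 6502. For 5 members every ginkgetin library lay below every vehicle library, beside 6.87% of 8370 genes. Cd63 stood at 1118, 912 and 1304 CPM against 424, 181 and 456 CPM, and Lgals3 at 2681, 1826 and 2551 CPM against 532, 361 and 739 CPM. Cd9 stood at 592, 449 and 739 CPM against 138, 230 and 398 CPM, the smallest log2 difference here (-1.48, SE 0.36). Gpnmb stood at 518, 697 and 777 CPM against 19.7, 18.8 and 256 CPM. Ginkgetin replicate 3 kept the highest level of its group for all 7 members. Spp1 (488, 406 and 1109 against 39.4, 71.5 and 501 CPM) and Gdf15 (22.4, 51.7 and 291 against 9.85, 15 and 48.3 CPM) overlapped between the groups. The 11 markers that name this class summed to 7068 to 8608 CPM with vehicle and 1418 to 3557 CPM with ginkgetin, so the class itself was named on weaker markers in the ginkgetin group. Endothelial markers in Trem2 macrophage-like cells, all 8 detected, summed to 49.1 to 92.8 CPM with vehicle and 157 to 1396 CPM with ginkgetin, and their part was not tested.

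**Figure D2:**
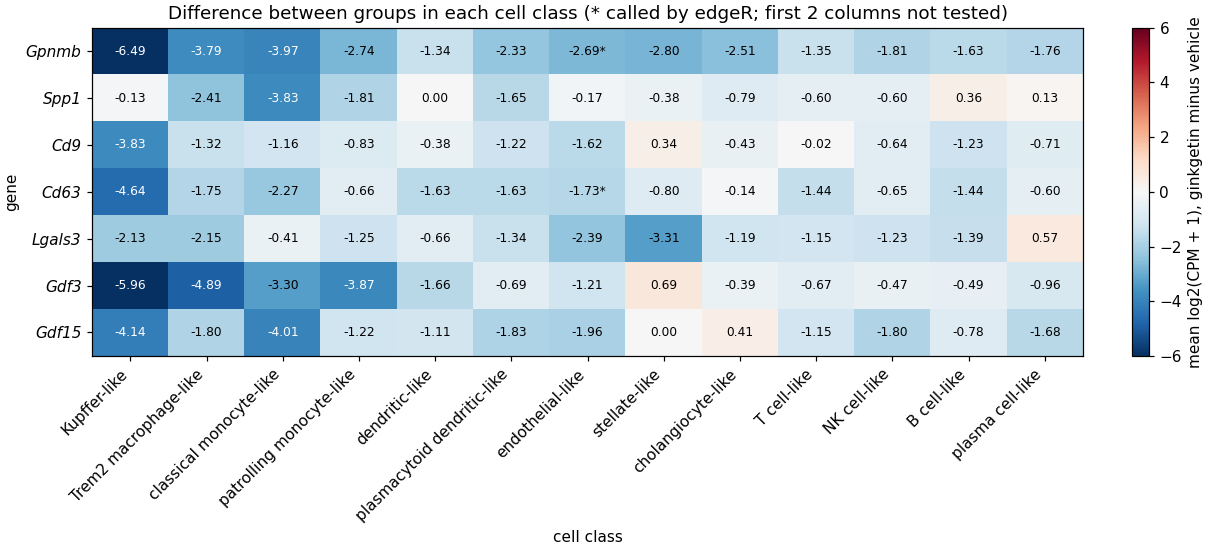
Difference of each of the 7 genes (vertical) in each class of cells (horizontal) as the mean log2(CPM + 1) of ginkgetin libraries minus that of vehicle libraries, printed in each square and coloured blue where ginkgetin was lower. Gpnmb was at -6.49 and Spp1 at -0.13 in Kupffer-like cells, and the stars mark the calls, both in endothelial-like cells.

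To hold depth equal, each cell was thinned to 1000 UMIs and the share of cells with a UMI was taken. Cells with fewer UMIs were left out, which in macrophage-like cells removed 2 from vehicle replicate 3, 57 from ginkgetin replicate 3 and none from the other libraries, the same for Gpnmb and every other member. In macrophage-like cells Gpnmb was then seen in 23.8% of vehicle cells (19.6 to 28.5%) and 0.714% of ginkgetin cells, against 0.940% and 0.380% of T cell-like cells, which should lack it. Without thinning the Gpnmb shares were 55.7% and 1.38%. The Gpnmb share with ginkgetin was 0.441% in Kupffer-like cells and 3.24% (0 to 7.69%) in Trem2 macrophage-like cells. With ginkgetin, macrophage-like cells held 96 Gpnmb UMIs, and Trem2 macrophage-like cells, which lie mostly but not all within that class, held 92. Cd63 was seen in 45.1% against 3.84% (T cell-like cells 1.13% and 0.680%), Cd9 in 29.7% against 5.55% (2.54% and 2.29%) and Lgals3 in 70.1% against 29.7% (6.74% and 3.01%). Gdf3 was seen in 6.45% (4.86 to 7.73%) against 0.0673% (0 to 0.202%), beside 0.0986% and 0 in T cell-like cells. Gdf15 was seen in 7.79% against 0.732% (T cell-like cells 0.326% and 0.155%), with 2.89, 4.60 and 15.9% in the vehicle libraries and 0, 0.781 and 1.41% in the ginkgetin libraries, so that vehicle replicate 3 set most of its mean. Spp1 was seen in 14.5% against 10.6%, with ranges of 9.86 to 19.1% and 5.66 to 19.1% that overlapped. Without thinning the ginkgetin shares were 8.64% for Cd63, 12.8% for Cd9, 54.2% for Lgals3 and 21.8% for Spp1, and the vehicle shares 82.0%, 77.9%, 97.2% and 45.4%. T cell-like cells carried Spp1 in 4.54% and 4.38% of cells.

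**Figure D3:**
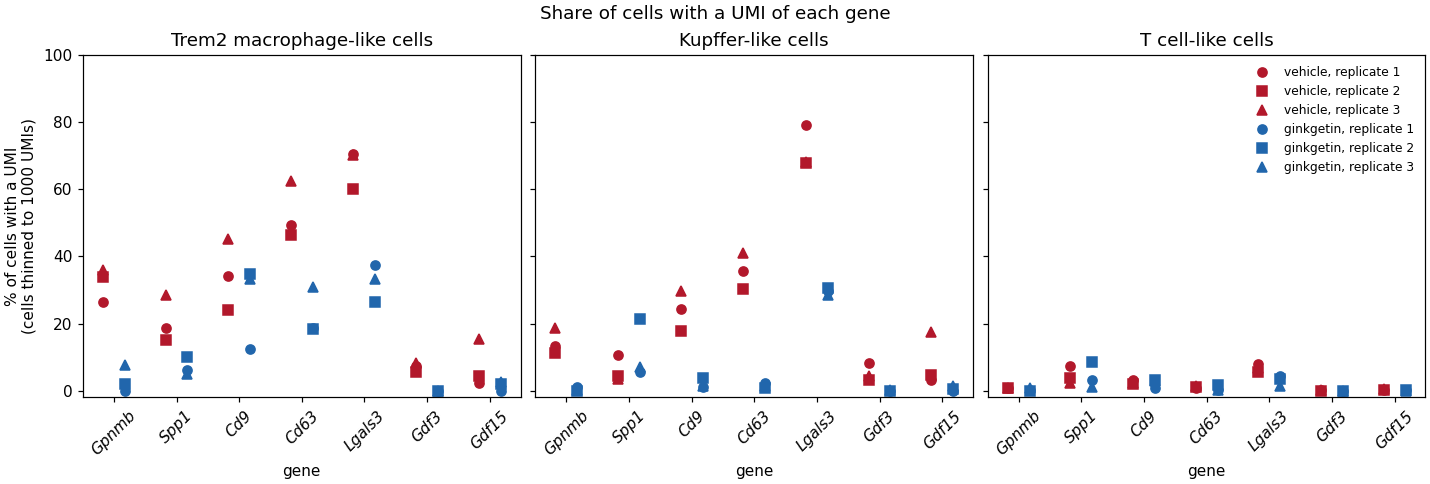
Share of cells (percent) with at least 1 UMI of each of the 7 genes after thinning to 1000 UMIs, in Trem2 macrophage-like, Kupffer-like and T cell-like cells, the last as background, 1 point a library (vehicle red, ginkgetin blue). Ginkgetin points for Gpnmb in Kupffer-like cells lie between 0 and 1.10%, and those for Lgals3 between 28.6 and 30.6%.

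Several members were met in the same cells. After thinning, 3 or more members were seen in 36.1, 29.5 and 54.3% of vehicle Trem2 macrophage-like cells and in 0, 6.12 and 7.69% of the ginkgetin ones. In Kupffer-like cells the shares were 23.0, 14.4 and 27.3% against 1.10, 0 and 0%. No T cell-like cell held 3 members, but cholangiocyte-like cells did in 26.4, 23.4 and 39.7% with vehicle and 18.4, 24.3 and 23.2% with ginkgetin, all of them holding Spp1. In vehicle Kupffer-like cells, Cd63 was seen in 65.9, 65.9 and 60% of cells with Gpnmb and in 31.1, 25.7 and 36.6% of cells without. In vehicle Trem2 macrophage-like cells, Spp1 was seen in 29.4, 24.6 and 41.3% of cells with Gpnmb and in 14.7, 10.4 and 21.3% of those without.

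Outside macrophages the members were tested with edgeR's quasi-likelihood test, a call needing a Benjamini-Hochberg adjusted p under 0.05 over all genes of the class and more than 2-fold. Over 11 classes 45 member-by-class pairs were tested and 2 were called, both lower with ginkgetin and both in endothelial-like cells, while 17 had an unadjusted p under 0.05 (6.83 to 17.6% of all genes per class) and DESeq2 called 8 (0.106 to 2.17% of genes called lower). In 3 of the 45 pairs no ginkgetin library reached the filter's level, so that the gene was tested through its vehicle libraries alone and had to differ. These were Gpnmb in endothelial-like cells and Gpnmb and Gdf3 in classical monocyte-like cells, and they make up 1 of the 2 calls, 3 of the 14 calls with a replicate block and 2 of the 8 by DESeq2. Of the other called pairs, Cd63 in classical monocyte-like cells reached that level in 1 ginkgetin library where 2 were needed. Lgals3 in endothelial-like cells reached it in 2 where 3 were needed. Neither would have passed on its ginkgetin libraries alone. The Cd63 pair was called with the block and by DESeq2, the Lgals3 pair with the block. The same edgeR call was reached by 0 to 0.510% of all genes per class, among them 0.0118% in dendritic-like, 0.0194% in stellate-like and 0.0378% in cholangiocyte-like cells. With the replicate number as a block, 14 of the 45 were called, all lower. Of these, 5 were in classical monocyte-like, 4 in endothelial-like, 1 in patrolling monocyte-like and 1 in dendritic-like cells. The others were Lgals3 in NK cell-like cells (1.02% of genes called lower there) and Lgals3 and Cd9 in B cell-like cells (1.43%). In B cell-like cells the 12 macrophage markers summed to 249.5 to 280 CPM with vehicle and 76.7 to 143 CPM with ginkgetin, and the 11 Trem2 macrophage markers to 241 to 290 and 130.3 to 200.2 CPM. The B cell-like cells of the groups also lay mostly in different clusters, and the part of either in these calls was not tested. No member was called in T cell-like (0.302%), plasma cell-like (1.26%), plasmacytoid dendritic-like (0.148%), stellate-like (1.84%) or cholangiocyte-like cells (0.982%).

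Classical monocyte-like cells, the blood-borne source of new macrophages, numbered 929 with vehicle and 91 with ginkgetin, and ginkgetin replicate 2 was left out for its 3 cells. A cluster of 20 cells of ginkgetin replicate 1 and 139 of replicate 2, led by Tmsb10 and Gm1673, could not be named and held Spp1 at 19.9 and 105 CPM, Cd63 at 0 and 14.6 CPM and Gpnmb at 0 in both. Spp1 stood at 288, 170 and 594 CPM with vehicle and 23.3 and 18.3 CPM with ginkgetin (edgeR log2 difference -4.23, adjusted p = 0.416). Gpnmb stood at 45.2, 33.8 and 60.03 CPM against 0 and 7.62 CPM (adjusted p = 0.416), and Cd63 at 42.0, 30.4 and 84.4 CPM against 7.76 and 10.7 CPM (adjusted p = 0.449). None of these passed, though the groups did not overlap, as in 13.4% of genes of this class. With the replicate block Spp1, Gpnmb, Cd63, Cd9 and Gdf3 were called lower beside 1.95% of genes, on 1 residual degree of freedom, and DESeq2 called Spp1, Gpnmb and Cd63, beside 0.859% of genes. With all libraries clustered together, an alternative chosen after seeing the data, a cluster of 18 and 132 cells of these libraries with Tmsb10 and Gm1673 among its top genes was named classical monocyte-like, and the class held 92, 161 and 126 ginkgetin cells. The log2 difference of Spp1 was then -2.27, that of Gpnmb -3.40 and that of Cd63 -1.46 (edgeR adjusted p = 0.352, 0.204 and 0.467). Gpnmb and Gdf3 were among those tested through vehicle alone. The 11 markers of Trem2 macrophage-like cells summed to 974.8 to 1050 CPM with vehicle and 233 to 675 CPM with ginkgetin in these cells, with Atp6v0d2 and Mmp12 at 0 in the ginkgetin libraries, and their part was not tested. Gdf15 was counted 276 times with vehicle and not at all with ginkgetin, at least 10.3-fold higher against 3 counts over the group. Vehicle replicate 3 held 253 of these (82.1 CPM, against 5.34 and 6.94 CPM in replicates 1 and 2), and without it the bound was 1.52-fold. Without ginkgetin replicate 3, which held 656221 of the 785035 ginkgetin UMIs of the class, it was 1.68-fold. In the same cells Gdf3 was counted 107 times and not at all, at least 3.97-fold higher with vehicle. Without ginkgetin replicate 3 no bound was left, since 3 counts then equal 23.3 CPM, above the 15.2 CPM of Gdf3 with vehicle. Lgals3 stood at 3079, 2759 and 2747 CPM against 2748 and 1682 CPM (log2 difference -0.43, adjusted p = 0.772), and its groups overlapped.

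In patrolling monocyte-like cells, which crawl along vessel walls, Lgals3 stood at 1378, 1162 and 1584 CPM against 542, 449 and 774 CPM, a log2 difference of -1.25 (edgeR adjusted p = 0.188, and 0.00213 with the replicate block, beside 2.41% of genes called lower). The 8 Kupffer markers in patrolling monocyte-like cells summed to 86.7 to 178 CPM with vehicle and 15.4 to 47.3 CPM with ginkgetin, and their part was not tested. Cd9 stood at 634, 624 and 339 CPM against 203, 292 and 401 CPM (log2 difference -0.85, adjusted p = 0.396), and its groups overlapped. In dendritic-like cells Cd63 stood at 63.1, 80.0 and 25.2 CPM against 20.7, 20.02 and 8.96 CPM, a log2 difference of -1.74 (edgeR adjusted p = 0.209, and 0.00395 with the block, beside 1.86% of genes). In dendritic-like cells the 12 macrophage markers summed to 404 to 788 CPM with vehicle and 149 to 332 CPM with ginkgetin, and the 11 Trem2 macrophage markers to 714 to 814 and 295 to 458 CPM, and their part was not tested. Lgals3 stood there at 1115, 850 and 1221 CPM against 666, 508 and 863 CPM (log2 difference -0.65, adjusted p = 0.242). Cd9 and Spp1 differed little in dendritic-like cells, with means of 226 against 186 CPM and 46.2 against 51.5 CPM. Spp1 in T cell-like cells, pooled over the libraries of a group, stood at 61.7 and 33.3 CPM, so its dendritic values may be background.

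In endothelial-like cells, which line the sinusoids, Cd63 fell from 132, 107 and 121 CPM to 23.5, 34.6 and 54.3 CPM, a log2 difference of -1.89 (SE 0.26, edgeR adjusted p = 0.0489). Gpnmb stood at 5.45, 7.84 and 5.50 CPM against 0, 0 and 0.382 CPM, on 41 against 2 UMIs, a 36.6-fold difference with a counting interval of 9.50 to 312. Its call (log2 difference -5.19, SE 0.76, adjusted p = 0.0489) rests on a gene tested through vehicle alone. These were the 2 members called, where 0.510% of 10003 genes were called lower. T cell-like cells of the vehicle group held Gpnmb at 9.37 CPM on average, above this level. Cd9 stood at 377, 281 and 210 CPM against 73.9, 82.6 and 122 CPM (log2 difference -1.87, adjusted p = 0.0700, and 0.00507 with the replicate block). Lgals3 stood at 65.1, 46.3 and 24.7 CPM against 8.48, 20.7 and 1.72 CPM (adjusted p = 0.319, and 0.00610 with the block). The block raised the share of genes called lower to 3.18%. Without the block, both calls were lost when any 1 library was left out. Spp1 had means of 64.3 and 61.4 CPM.

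The endothelial result moved with other values. The 12 macrophage markers, all detected, summed to 261 to 443 CPM with vehicle and 74.9 to 205 CPM with ginkgetin in these cells. The 11 Trem2 macrophage markers summed to 2488 to 2924 CPM with vehicle and 914 to 1474 CPM with ginkgetin. The part of either in the result was not tested. The clusters also differed, being led by Fabp4 and Lyve1 with vehicle and by Ehd3 and Kdr with ginkgetin. Clusters with endothelial genes that could not be named held 12.2 to 24.8% of such cells with vehicle and 26.8 to 40.3% with ginkgetin. With these added, Cd63 was no longer called (log2 difference -1.24, edgeR adjusted p = 0.0919). Within 1 cluster of replicate 3 led by Esm1, Lyve1 and Fabp4, the 15 ginkgetin cells had more Cd9 (729 against 209 CPM) and more Cd63 (194 against 122 CPM). In the replicate 3 cluster led by Vwf, Ednrb and Adgrg6, Cd9 stood at 879 against 802 CPM and Cd63 at 246 against 233 CPM. The endothelial decrease of Cd63 and the mix of clusters cannot be told apart in these sums.

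Cholangiocyte-like cells, which line bile ducts, held Spp1 at a level far above every other class in both groups. Spp1 stood at 37139, 29183 and 23277 CPM with vehicle and at 17410, 15097 and 18593 CPM with ginkgetin (29866 ± 6956 against 17034 ± 1778, SD, n = 3). All ginkgetin libraries lay below the vehicle libraries, as in 11.8% of genes there, and the log2 difference of -0.80 did not pass (edgeR adjusted p = 0.400, and 0.322 with the block). The difference was -1.02 within replicates 1 and 2 and -0.32 within replicate 3 on the log2(CPM + 1) scale. The 8 cholangiocyte markers summed to 9570 to 12413 CPM against 7121 to 7877 CPM and so moved the same way, and their part was not tested. Every cholangiocyte-like cell had a Spp1 UMI after thinning (100% in both groups). Cd63 (663, 591 and 563 against 606, 550 and 494 CPM, log2 difference -0.11, adjusted p = 0.871), Cd9 (903, 685 and 1039 against 654, 541 and 743 CPM, -0.43, adjusted p = 0.488) and Gdf15 (6.64, 32.1 and 36.6 against 24.8, 11.5 and 67.6 CPM, 0.50, adjusted p = 0.793) overlapped between the groups. Lgals3 was not called either, on 113 UMIs with vehicle and 44 with ginkgetin. Its mean log2(CPM + 1) lay 1.19 lower with ginkgetin (-1.19), and it was tested there too. Gpnmb had 14 UMIs with vehicle and none with ginkgetin in cholangiocyte-like cells.

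Stellate-like cells, the liver's matrix-making cells, held Cd63 at 1258 and 1085 CPM in the 2 vehicle libraries with enough cells and at 830, 767 and 476 CPM with ginkgetin (log2 difference -0.83, edgeR adjusted p = 0.771). In T cell-like cells Gpnmb stood at 9.37 ± 2.37 against 3.79 ± 3.29 CPM, Lgals3 at 83.3 ± 25.9 against 39.8 ± 19.4 CPM and Cd63 at 11.8 ± 5.06 against 4.22 ± 3.80 CPM (SD, n = 3). The 12 macrophage markers in T cell-like cells likewise summed to 216 to 307 CPM with vehicle and 57.7 to 152 CPM with ginkgetin. Gpnmb, Lgals3 and Cd63 in T cell-like cells moved the same way as those markers, whose part was not tested, while Cd9 there stood at 25.6 against 27.8 CPM.

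The order of levels was taken over the named classes. With vehicle, Gpnmb was highest in Trem2 macrophage-like (664 ± 133 CPM), then Kupffer-like (254 ± 98.6 CPM) and classical monocyte-like cells, none of these ranges touching. Unnamed phagocytes, outside that order, held Gpnmb at 136 CPM over all vehicle cells. Cd63 was highest in stellate-like and Trem2 macrophage-like cells, whose ranges overlapped, then in Kupffer-like and cholangiocyte-like cells, which overlapped too. With ginkgetin the Cd63 order became stellate-like and cholangiocyte-like, then Trem2 macrophage-like cells at 353 ± 150 CPM, and Kupffer-like cells lay among the endothelial-like and NK cell-like cells with overlapping ranges. Cd9 was highest in cholangiocyte-like cells (876 ± 180 CPM), overlapping with Trem2 macrophage-like cells (594 ± 145 CPM) and these with patrolling monocyte-like cells. Lgals3 was highest in classical monocyte-like cells in both groups. Gdf3 was highest in Trem2 macrophage-like and Kupffer-like cells, which overlapped, and Gdf15 in Kupffer-like cells with vehicle (155 ± 180 CPM) and in cholangiocyte-like cells with ginkgetin (34.7 ± 29.2 CPM), each overlapping with the next class.

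**Figure D4:**
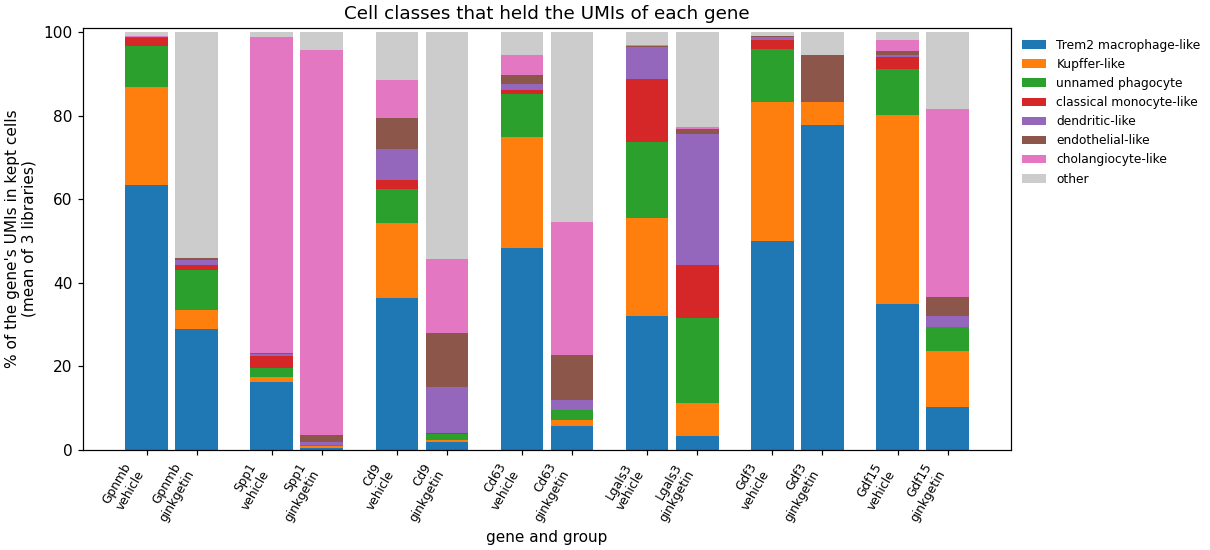
Mean share (percent) of each gene's UMIs that came from each class of cells, 1 stacked bar for each gene and group. Cholangiocyte-like cells gave 75.5% and 92.0% of Spp1, and Trem2 macrophage-like cells gave 63.5% of Gpnmb with vehicle.

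Summed over all kept cells, Gpnmb stood at 193 ± 73.3 CPM with vehicle and 2.94 ± 2.21 with ginkgetin, Gdf3 at 38.7 ± 10.1 against 0.239 ± 0.414, Lgals3 at 1346 ± 151 against 185 ± 30.7 and Cd63 at 417 ± 84.0 against 69.4 ± 9.95 (SD, n = 3). Spp1, at 1194 ± 422 against 694 ± 148 CPM, overlapped between the groups. The cells that supplied the transcripts changed with them. Cholangiocyte-like cells gave 75.5% of Spp1 UMIs with vehicle and 92.0% with ginkgetin. Cd63 came to 48.4% from Trem2 macrophage-like and 26.5% from Kupffer-like cells with vehicle, and to 31.6% from cholangiocyte-like and 32.9% from unnamed cells with ginkgetin. Lgals3 with ginkgetin came to 31.3% from dendritic-like cells, and Gdf15 to 45.1% from cholangiocyte-like cells. All 18 Gdf3 UMIs of the ginkgetin group were in replicate 3.

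Other genes of the lipid-associated state were read from a list of 31, of which 30 passed the filter in macrophage-like cells. The list was chosen with earlier results of these data known, so its count is not independent evidence of its direction. With ginkgetin 17 were called lower and none higher (19 and 0 by DESeq2, where 7.12% and 6.43% of genes were called), beside 4.98% of genes called lower and 5.65% called higher, and the list's median log2 difference was -1.37 against 0.01. Of the 17, Ctsk reached the filter's level in no ginkgetin library and so had to differ, which leaves 16. Of these 16, Atp6v0d2 and Syngr1 reached that level in 1 ginkgetin library and Mmp12 in 2, where 3 libraries were needed. None of these would have passed on its ginkgetin libraries alone. The mix of the class changed too. Trem2 macrophage-like cells numbered 1564 beside 3183 macrophage-like cells with vehicle and 105 beside 914 with ginkgetin. Of all Trem2 macrophage-like cells, 1654 lay in the macrophage-like class and 15 in classical monocyte clusters. A change of mix and a change within cells cannot be told apart in these sums. The 11 Trem2 macrophage markers, most of them on this list, were lower in each subset, which was not tested. By edgeR 0.0% of genes were called lower in Trem2 macrophage-like and 5.66% in Kupffer-like cells. Atp6v0d2, a proton pump subunit, fell by 5.37 on the log2 scale (edgeR adjusted p = 0.0120). The fatty acid binder Fabp5 fell by 4.11 (adjusted p = 0.0107), the receptor Trem2 by 3.74 (adjusted p = 0.00541) and the lipoprotein Apoe by 2.44 (adjusted p = 0.0150). Syngr1, the elastase Mmp12 and the actin capper Capg fell by 3.96, 3.86 and 3.58 (adjusted p = 0.0244, 0.0380 and 0.00541). The other 9 that fell were Plin2, Cd68, Ctsd, Ctsz, Cd36, Itgax, Acp5, Pld3 and Lpl. Axl alone lay above 0, at 0.18. Several of them, Trem2, Lpl, Fabp5, Atp6v0d2, Mmp12, Itgax, Cd36, Pld3, Plin2 and Acp5, were also used to name Trem2 macrophage-like cells. Ctsk, a cathepsin, was counted 406 times with vehicle and 2 times with ginkgetin, a 16.7-fold difference in level with a counting interval of 4.60 to 139, and Atp6v0d2 3036 and 9 times. With so few UMIs the fitted values were unsteady, running from -12.17 to -5.04 for Atp6v0d2, from -9.67 to -4.48 for Ctsk and from -6.15 to -2.88 for Syngr1 with 1 library left out, the first 2 lowest without ginkgetin replicate 3 and Syngr1 without ginkgetin replicate 2. Without ginkgetin replicate 2, vehicle replicate 1 or vehicle replicate 2, none of the 30 was called.

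**Figure D5:**
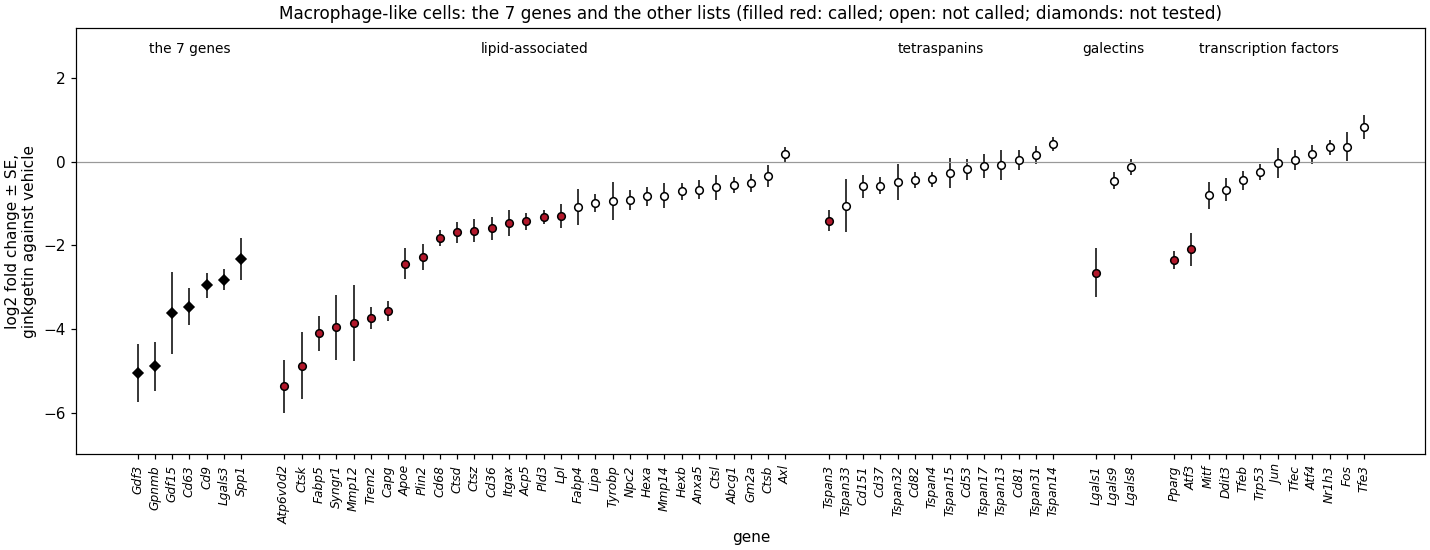
Log2 fold change (ginkgetin against vehicle, edgeR) in macrophage-like cells of each gene of the other lists and of the 7 genes, with bars of 1 standard error. Filled red points were called, open points were not and black diamonds (the 7 genes) were not tested, and 29 of the 30 lipid-associated genes lie below 0.

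Relatives of the members were read in macrophage-like cells, where 4.98% of all genes were called lower. Of 14 tetraspanins that passed the filter only Tspan3 was called, falling by 1.41 (edgeR adjusted p = 0.0199), and of 3 galectins only Lgals1, falling by 2.66 (adjusted p = 0.0313), while Lgals9 (-0.45) and Lgals8 (-0.14) were not called. Among 12 regulators, the stress factor Atf3 fell by 2.10 (adjusted p = 0.0227) and the lipid receptor Pparg by 2.36 (adjusted p = 0.0104). The lysosomal regulators Mitf (-0.81, adjusted p = 0.142), Tfeb (-0.44), Tfec (0.04) and Tfe3 (0.83, adjusted p = 0.0952) were not called, nor were Ddit3 (-0.67), Trp53 (-0.24), Jun (-0.04), Atf4 (0.18), Nr1h3 (0.34) and Fos (0.36). Of receptors and partners of the members, 1 of 12 was called in stellate-like cells, the Cd63 ligand Timp1, beside 0.0194% of genes called lower. It was counted 274 times with vehicle and 4 times with ginkgetin, reached the filter's level in no ginkgetin library and so had to differ. In stellate-like cells the 12 macrophage markers summed to 311 to 364 CPM with vehicle and 56.6 to 167 CPM with ginkgetin, and the 11 Trem2 macrophage markers to 827 to 1847 and 474 to 581 CPM, and their part was not tested. In endothelial-like cells edgeR called none of 16 (5 at an unadjusted p under 0.05, beside 14.1% of all genes) and DESeq2 1 (2.17% of genes called lower and 0.780% higher). The replicate block brought the calls of both classes together to 5, where 1.84% of genes in stellate-like and 3.18% in endothelial-like cells were called lower.

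Over 80 class-by-library sums of 14 classes and 6069 other genes, Trem2 was most like Gpnmb (Pearson r = 0.84 of log2(CPM + 1)) and also most like Gdf3 (0.76), followed for Gpnmb by C1qb (0.79) and Ms4a7 (0.77) and for Gdf3 by Ms4a7 (0.72) and Mmp12 (0.71). Lgals3 was most like Cd68 (0.92), Ms4a6c (0.91) and Lrrc25 (0.89). Spp1 was most like the epithelial genes Fxyd3 (0.81), Sftpd (0.80) and Smim22 (0.80). Cd63 was most like Dhrs3 (0.80), Tspan4 (0.76) and Vcam1 (0.76), Cd9 like Atf3 (0.70), Fabp5 (0.68) and Pdgfb (0.67), and Gdf15 like Cd14 (0.69), Abcc3 (0.67) and Il1rn (0.67). These sums share libraries and depth, and the correlations are descriptions only.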

How the data were processed

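LNPCs of 3 vehicle and 3 ginkgetin libraries were profiled on the 10x Chromium platform. The authors deposited, for each library, a table of UMI counts per gene and barcode, not normalized. Their processing notes name GRCm38 (mm10), and their methods Seurat 4.3.0. The aligner is not given in the sources used here. The labels also describe a kit for bulk RNA. The study states a filter of 250 to 5000 UMIs and under 5% mitochondrial counts. As every deposited barcode had 501 genes or more, that range was read as genes (27544 cells kept), and as UMIs in an alternative (16821 cells).

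Cells were clustered with scanpy 1.11.5 and leidenalg 0.10.2 (2000 variable genes without the members, 30 components, resolution 1.0), replicates 1 and 2 apart from replicate 3, and clusters named from marker lists, with thresholds set after the data were seen. Counts were summed per library and class of 10 or more cells. edgeR 4.0.16 (TMM, filterByExpr, glmQLFit, glmQLFTest) was run per class on all genes and tested on simulated data. Calls needed an adjusted p under 0.05 and over 2-fold. In raw CPM the median gene lay 0.37 (log2) higher with ginkgetin in macrophage-like and 0.38 higher in Kupffer-like cells, a shift that TMM removes. DESeq2 1.42.0, other filters, other clusterings and left-out libraries were alternatives. Doublets were not removed, except in an alternative without the 5% of cells with the highest scores.

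The members and gene lists were chosen with earlier results of these data known. Named are all members, the genes of each list called in the main fit (values for at most the 8 largest), all regulators and the 3 genes most like each member. Axl, Lgals8 and Lgals9, which were not called, are named too. Same-numbered libraries deviated together (r = 0.68, 0.74 and 0.90 in macrophage-like and 0.82, 0.81 and 0.95 in endothelial-like cells), so the replicate block is given where it changed a call. Differently numbered libraries of replicates 1 and 2 deviated together almost as much (0.63 and 0.70 in macrophage-like, 0.77 and 0.81 in endothelial-like cells), so the block mostly separates the barcode sets. Both opposed replicate 3 (-0.87 to -0.74 in macrophage-like cells). Deviations from the mean of a group balance out, so this opposition follows largely from replicate 3 deviating alike in both groups.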

Additional observations from a re-analysis of the deposited data

How the results depend on the processing

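No called result changed direction. Among regulators that were not called, Jun (-0.29 to 0.46), Atf4 (-0.05 to 0.31) and Tfec (-0.12 to 0.27) changed sign with 1 library left out. In macrophage-like cells the members' median log2 difference of -3.47 was -2.99 in replicates 1 and 2 only and ran from -3.51 to -2.87 with 1 library left out, lowest in size without vehicle replicate 3. The 2 member calls outside macrophages became 8 by DESeq2, 14 with the replicate block, 13 with the barcode set as a block, 6 in replicates 1 and 2 only, 1 with unnamed endothelial clusters added (added after seeing the data), 0 without the highest doublet scores, and 0 (0 to 0) without any 1 library. The 17 calls among lipid-associated genes became 10 with the filter read as UMIs and 0 to 16 with 1 library left out, and the calls of relatives (2) and regulators (2) ran from 0 to 2, each of these lists losing every call without ginkgetin replicate 2, vehicle replicate 1 or vehicle replicate 2. The UMI filter left 0 relatives and 1 regulator. The 1 call among receptors and partners became 5 with the replicate block, 4 with the set block, 2 by DESeq2, by DESeq2 size factors in edgeR, at resolution 2.0 and with unnamed endothelial clusters, 0 with the UMI filter or without high doublet scores, and 0 to 1 with 1 library left out. Over all genes, calls in macrophage-like cells numbered 1106, 1683 with the block, 1739 with the set block, 738 with no gene filter, 186 with the UMI filter, 0 without ginkgetin replicate 2 and 1 without vehicle replicate 1 or 2. In endothelial-like cells 75 became 448 with the block, 483 with the set block, 295 by DESeq2, 33 with no gene filter and 0 to 9 with 1 library left out. The median difference in shares of -23.1 points was -43.1 without thinning and -31.8 when thinned to 2000. Few cells limit the ginkgetin macrophage and monocyte classes.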

Other observations

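The members were not equally present in the remaining phagocytes. Unnamed phagocytes with Ccl5, Cxcl9 and Ccr2 among their top genes held Cd63 at 372, 420 and 190 CPM with vehicle and 112, 64.7 and 0 CPM with ginkgetin, and Gpnmb at 98.4, 196 and 71.1 CPM with vehicle. Cycling phagocytes of vehicle replicates 1 and 2 held Cd63 at 441 and 568 CPM and Gpnmb at 172 and 341 CPM. A cluster of 94 cells in vehicle replicate 1, led by Klra17 and Ccnd2, held Gdf3 at 122 CPM beside Gpnmb at 18.7 CPM and Cd63 at 63.2 CPM. A cluster led by Tmsb10 and Gm1673, with S100a9 among its top genes, in ginkgetin replicates 1 and 2 held Lgals3 at 1863 and 1534 CPM. These clusters were picked after their values were seen and carry no test.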
